A study of Mus musculus with 19 samples.

Results

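Replication-dependent histone genes supply the histone proteins that package newly copied DNA. The deposited tables held 70 of them among 35274 genes, chosen as every row whose Ensembl ID maps to a symbol that starts with Hist1, Hist2, Hist3 or Hist4 followed by a code of class H1, H2A, H2B, H3 or H4. Class H1 had 6 genes, the linker histones that bind the DNA between nucleosomes. The core histones had 20 genes of class H2A, 19 of H2B, 12 of H3 and 13 of H4. On the mouse build GRCm38, 56 lay on chromosome 13, 10 on chromosome 3 between bases 96219865 and 96270132, 3 on chromosome 11 between 58948920 and 58956830, and 1, Hist4h4, on chromosome 6 between 136801553 and 136804415. Of the 70, 67 were annotated as protein coding and 3, Hist1h2al, Hist3h2bb-ps and Hist1h2aj, as pseudogenes. In 14 places an H2A and an H2B gene started head to head within 400 bases of each other.

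The mRNAs of these genes differ from other mRNAs at the 3′ end. Instead of a poly(A) tail they end just after a short stem-loop, which the stem-loop binding protein SLBP holds through processing, translation and decay. They are made in S phase, when DNA is copied, and are degraded when copying stops. Some of the genes can also give a longer transcript that runs past the stem-loop and ends in a poly(A) tail, a form known from cells that do not divide. Adult hepatocytes rarely divide in healthy liver and enter the cell cycle after injury.

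The study profiled hepatocytes from mice of the genotype OPN-CreERT2;Rosa26R-mT/mG, in which an inducible Cre under the osteopontin promoter switches a reporter from red to green. CTL were native hepatocytes of healthy liver, RED native tdTomato-positive hepatocytes of chronically injured liver, and GREEN hepatocytes that the labels call DR-derived, also of chronically injured liver. All groups carried the same alleles, and the age and sex of the animals and the injuring agent are not given in the labels. Experiment 1 selected RNA with a poly(A) tail (3 CTL, 5 RED and 2 GREEN libraries), and experiment 2 removed ribosomal RNA and kept RNA with or without a tail (3 libraries of each group). CTL 5, RED 2, RED 3 and RED 4 had a library in each experiment, so the kit could be compared within a sample, although kit and experiment cannot be told apart. In experiment 2 the submitters' library codes tie RED 2 to GREEN 1 (16w2), RED 3 to GREEN 2 (16w3) and RED 4 to GREEN 3 (16w4).

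The stem-loop is shown because it is the 3′ end feature for which these mRNAs are known. In the GENCODE M21 transcripts, a 16-base pattern (GG, any 3 bases, TT, any base, T, any base, A, any 3 bases, CC) with 6 complementary stem pairs around a loop of 4 bases was found on the sense strand of 46 of the 70 histone genes and of 134 of the 34845 genes with a transcript sequence (0.38%), so most genes with the pattern were not histone genes. Within 100 bases of a transcript end it was present in 28 genes, 23 of them histone genes. Capitals mark the stem and lower case the loop, 5′ to 3′, in the DNA letters of the transcript files.
Shared form of 26 genes, such as Hist1h1c, Hist1h2bg, Hist1h3a and Hist2h2aa1: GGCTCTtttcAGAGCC
Form of 7 genes, all H4, such as Hist1h4h, Hist1h4d and Hist1h4f: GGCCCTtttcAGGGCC
Form of 6 genes, such as Hist1h3c, Hist1h3e and Hist1h2bb: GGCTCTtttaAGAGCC
Form of Hist1h4i and Hist2h4: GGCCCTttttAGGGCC
Form of Hist1h4b and Hist1h4j: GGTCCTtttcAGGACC
Form of Hist1h4a: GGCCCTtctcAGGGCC
Form of Hist1h3g: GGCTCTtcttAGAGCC
Form of Hist2h2ac: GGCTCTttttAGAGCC
The stem began with GGCCCT or GGTCCT in all 12 H4 genes with a match and with GGCTCT in the 34 matched genes of the other classes. The annotated transcript ended within 100 bases of the loop in 23 genes, ran further in 23 and had no match in 24, of which 16 are annotated without a 3′ UTR.

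Histone reads were few in every library. They made up 0.00735% to 0.0188% of the estimated counts in experiment 1, whose totals ran from 22442431 to 34216692, and 0.0384% to 0.0918% in experiment 2, whose totals ran from 38061745 to 44177424. The genes are near copies of each other: the median gene had 39.0% of its 31-base words to itself, and 5 genes (Hist2h2aa1, Hist2h2aa2, Hist2h2bb, Hist2h3b and Hist2h3c1) had none. Estimated counts split among such copies are uncertain for the single gene and firmer for the class, except where a copy lies outside the histone set. All words of these 5 genes also occur in Gm20633, Gm20628 or Gm20634, which are not in the set. Their reads can therefore be lost to the class sums as well. Alb, the main protein of blood plasma and the leading hepatocyte marker, was at 27820 to 92270 CPM (counts scaled to a library of one standard size) in every experiment 2 library. Levels below are CPM on library sizes scaled by trimmed mean of M-values (TMM), and where genes are compared with each other, CPM per kilobase of the median annotated transcript.

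The same samples gave much higher histone levels without poly(A) selection. Of the 60 histone genes with enough counts to test in the 4 samples with 2 libraries, 56 were higher in experiment 2 and 0 lower (edgeR's quasi-likelihood test with the sample as a term, adjusted p under 0.05). Over all 15912 genes, 29.9% were called higher and 25.2% lower. Genes with few poly(A) reads passed the count filter through experiment 2, where they were high, and could hardly be called lower. Of the 70 genes, 8 had 0 reads in the 4 experiment 1 libraries and over 3 in experiment 2. Another 11 had 1 to 3 reads in experiment 1 and over 3 in experiment 2. In experiment 1 alone, 19 histone genes had enough counts to test. The median log2 difference was 4.65 over the histone genes, or 4.61 with genes at 0 in experiment 1 set to their lower bound, against 0.06 over all genes. In 53 of the 60 every experiment 2 library lay above the experiment 1 library of its sample, which held for 34.6% of all genes. Summed over the 70 genes, the level in the poly(A) library was 35.9% of that in the depletion library in CTL 5, 43.9% in RED 2, 24.4% in RED 3 and 25% in RED 4. The median gene was far lower, at 4.04%.

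**Figure D1:**
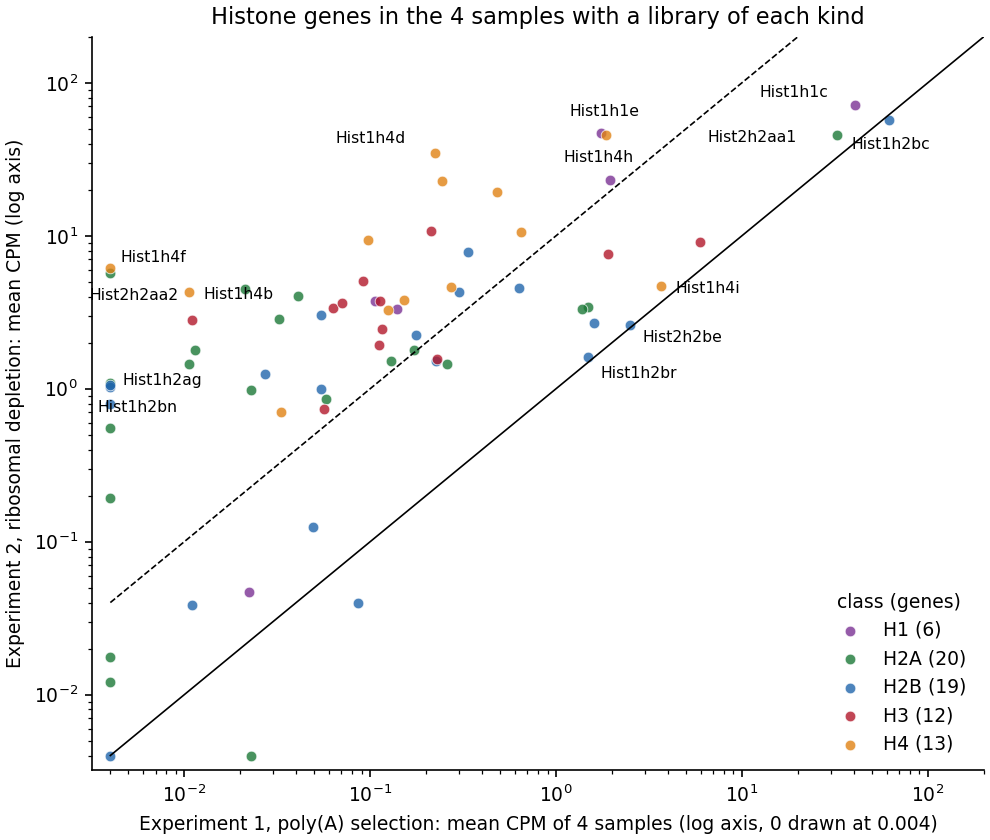
Mean CPM of each of the 70 histone genes over CTL 5, RED 2, RED 3 and RED 4 in poly(A)-selected libraries (horizontal, log axis, 0 drawn at 0.004) and in ribosome-depleted libraries (vertical, log axis), coloured by class. The solid line marks equal levels and the dashed line a 10-fold difference; most genes lie above the dashed line, and Hist1h2bc, Hist2h2be and Hist1h2br lie near the solid one.

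Hist1h4f, an H4 gene at bases 23551258 to 23551648 of chromosome 13, had the largest fitted difference, although genes at or near 0 in experiment 1 cannot be ranked. It had 0 reads in all 4 poly(A) libraries and 106, 149, 527 and 339 reads in the depletion libraries of CTL 5, RED 2, RED 3 and RED 4. Against the 3 reads that a count of 0 over the 4 libraries allows, it was at least 210-fold higher (fitted adjusted p = 1.6e-06). Hist2h2aa2, an H2A gene with no 31-base word of its own, was listed at 0 in experiment 1 and at 132, 314, 342 and 228 reads in experiment 2. Its near copy Hist2h2aa1, also without a word of its own, held reads in the same poly(A) libraries, so no bound is given for Hist2h2aa2. The H2A gene Hist1h2ag and the H2B gene Hist1h2bn were at least 38.2-fold and 37.6-fold higher by the same bound, which covers counting error and not the split of reads among copies. Hist1h4b, with 1 read in experiment 1 and 737 in experiment 2, had a ratio of 414 with a 95% counting interval from 74.1 to 16400. In all, 8 genes had 0 reads in experiment 1 and over 3 in experiment 2, and 11 had 1 to 3.

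Several of the most abundant genes differed far less. Hist1h2bc, an H2B gene whose annotation spans bases 23684199 to 23692908 of chromosome 13, read 101.0, 27.9, 58.4 and 58.7 CPM in the poly(A) libraries of CTL 5, RED 2, RED 3 and RED 4 and 88.0, 36.1, 52.8 and 50.7 in the depletion libraries. The samples kept nearly the same levels under both kits, with CTL 5 highest and RED 2 lowest (log2 difference −0.06, SE 0.09, adjusted p = 0.60). Hist2h2be, another H2B gene, read 2.12 to 3.20 CPM in experiment 2 and 2.11 to 2.73 in experiment 1 (log2 difference 0.07, SE 0.15, adjusted p = 0.73). The H2B gene Hist1h2br (0.15, SE 0.21, adjusted p = 0.58) and the H4 gene Hist1h4i (0.45, SE 0.19, adjusted p = 0.067) were the other two that did not pass the test. Hist2h2aa1, the next smallest, was higher by 0.55 (SE 0.11, adjusted p = 0.0021).

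Hist1h1c and Hist1h1e, both linker histones of chromosome 13 with a stem-loop of the same form, went apart. Hist1h1c read 25.4, 42.7, 62.9 and 31.5 CPM with poly(A) selection and 47.7, 61.3, 105.8 and 71.7 with depletion, and its log2 difference was 0.84 (SE 0.09, adjusted p = 3.2e-05). Hist1h1e read 2.07, 1.77, 1.61 and 1.48 CPM with poly(A) selection and 48.04, 33.2, 63.9 and 42.6 with depletion (log2 difference 4.77, SE 0.13, adjusted p = 1.7e-08). The poly(A) level of Hist1h1e was 3.65% of its depletion level and that of Hist1h1c 57.7%. Hist1h4h, the H4 gene with the highest level per kilobase, read 1.35 to 2.29 CPM with selection and 28.5 to 57.5 with depletion (3.98%).

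By class, all tested genes of H1 (5), H2A (16) and H3 (12) were higher in experiment 2, as were 12 of 15 H2B and 11 of 12 H4 genes. The median log2 difference was 4.56 for H1, 4.75 for H3 and 5.00 for H4, and lowest for H2B at 3.86. For H2A it was 5.91, or 4.74 with genes at 0 set to their bound. Where the annotated transcript ended within 100 bases of the loop, 20 of 20 tested genes were higher and the poly(A) level had a median of 1.68% of the depletion level. Where it ran further, 20 of 21 were higher and the median was 8.55%; with no match, 16 of 19 were higher and it was 3.88%. In all, 36 genes stood under 5% and 15 over 25%.

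Lists of other histone pathway genes had medians near 0 and calls in both directions. Most histone variants are made outside S phase from mRNAs with poly(A) tails, but the 3′ ends of those listed were not examined here. Of 11 tested variants, 3 were higher and 5 lower in experiment 2, with a median log2 difference of −0.20. The H3.3 gene H3f3b read 195.7, 263.7, 295.1 and 357.5 CPM with poly(A) selection and 166.0, 200.7, 225.4 and 289.0 with depletion (log2 −0.33, SE 0.05, adjusted p = 0.00027). H2afz, which encodes the variant H2A.Z, was lower by a log2 of −0.83 (SE 0.06, adjusted p = 2.3e-06). The 3 higher variants were the linker variant H1fx (2.26, SE 0.44, adjusted p = 0.0015), H2afx (0.86) and H2afy (0.25). Of 21 genes of histone mRNA processing and control 7 were higher and 5 lower, of 20 histone chaperones 5 and 7, and of 30 S phase genes 3 and 9, with medians of 0.01, −0.01 and −0.10.

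Which genes made up the histone mRNA of these cells was read from experiment 2. Per kilobase, Hist1h4h led with a mean of 104.3 CPM over the 9 libraries, followed by Hist2h2aa1 (86.2), Hist1h1c (47.2), Hist1h2bc (47.1), Hist1h4n (45.7), Hist1h4d (35.4), Hist1h4c (30.1) and Hist1h1e (27.4). The gap between neighbours in this order was over the larger SD of the pair (9 libraries) in 1 of the 24 pairs of the first 25 genes, that of Hist2h2aa1 and Hist1h1c. The level of Hist2h2aa1, which has no 31-base word of its own, depends on how reads were split among copies. The order differed by group: Hist1h1c came next after Hist2h2aa1 in RED (59.4) and GREEN (51.6), but in CTL (30.7) it came after Hist1h2bc (57.6), Hist1h4d (33.7) and Hist1h4n (32.99). The next 12 places, from Hist1h4a (19.4) through Hist1h4f, Hist1h3e, Hist1h2bg, Hist2h2aa2, Hist1h2al, Hist1h4k, Hist2h2bb, Hist2h2ac, Hist1h4b and Hist1h2ap to Hist2h3b (9.65), held genes of every core class. Hist1h3i, Hist1h4i, Hist2h3c2, Hist1h3a and Hist1h2bb completed the first 25, down to 6.22 CPM per kilobase. Genes whose annotation runs far past the loop, such as Hist1h1d (7.425 kilobases) and Hist4h4 (2.863), are understated on this scale. This also touches the order above. The models of Hist1h4d, Hist1h4c and Hist1h1e run 770, 454 and 1153 bases past the loop, and that of Hist1h4h 46. Their poly(A) levels were 0.644%, 1.02%, 3.65% and 3.98% of the depletion levels, so the places of the first 3 may be too low. At the other end, Hist1h2aj, Hist1h2ba, Hist1h2aa and Hist1h2ao had at most 0.079 CPM in any library, and the testis H1 gene Hist1h1t at most 0.114. These 5 were named after their values were seen.

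H4 genes held 35.0% to 47.4% of the per-kilobase histone signal in each library and H2A genes 17.7% to 33.8%. H2B genes held 11.9% to 16.6%, H1 genes 8.42% to 14.7% and H3 genes 6.30% to 12.7%. In H3 every GREEN library (9.27% or more) lay above every CTL library (6.30% to 8.42%), while RED overlapped both. In the other classes the groups overlapped, and differences in these shares were not tested.

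In experiment 2 the libraries of the code 16w2 stood apart from those of the other codes, in RED and in GREEN alike. RED 3, RED 4, GREEN 2 and GREEN 3 had high levels of most histone genes, and RED 2 and GREEN 1, which share the code 16w2, had levels near those of CTL. Of the 62 tested histone genes, 50 lay above every CTL library in RED 3 (against 37.6% of all 16816 genes), 46 in RED 4 (36.8%), 49 in GREEN 2 (38.6%) and 50 in GREEN 3 (44.4%). In RED 2 the number was 14 (41.8%) and in GREEN 1 it was 20 (42%). Set against the other two CTL libraries, CTL 1 was above in 21 (24.3%), CTL 2 in 13 (44.1%) and CTL 5 in 28 (30.9%). The median ratio to the CTL mean was 3.91 in RED 3, 2.51 in RED 4, 3.21 in GREEN 2, 2.47 in GREEN 3, 0.822 in RED 2 and 0.921 in GREEN 1.

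**Figure D2:**
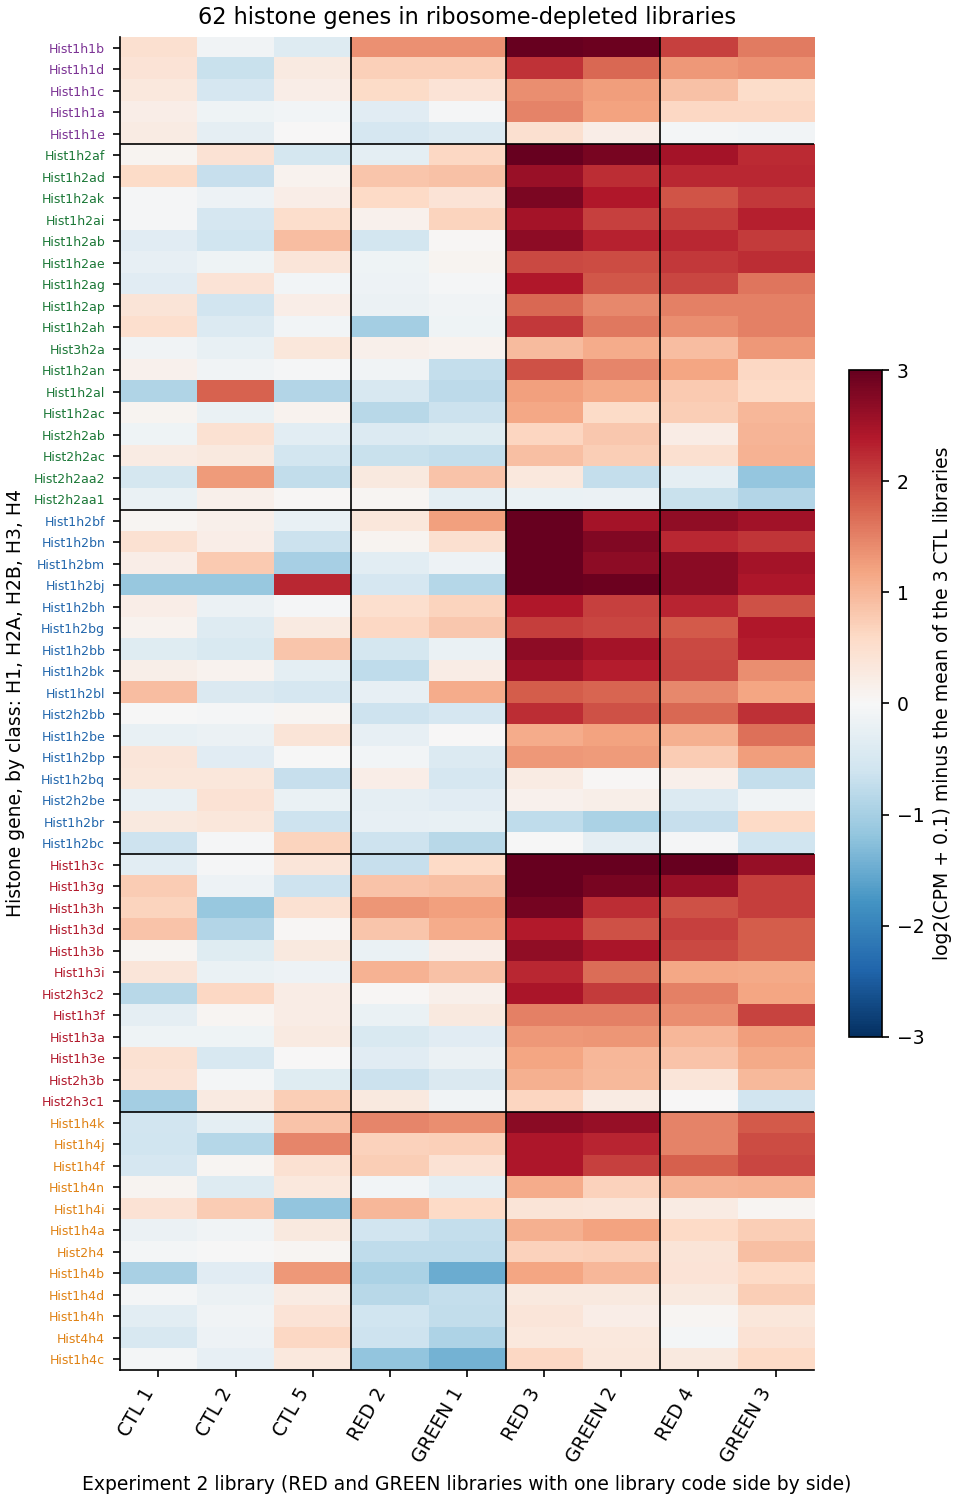
Level of the 62 tested histone genes (rows, grouped by class) in the 9 libraries of experiment 2 (columns), as log2(CPM + 0.1) minus the mean of the 3 CTL libraries; red is higher and blue lower. RED and GREEN libraries with the same library code stand side by side: both 16w2 columns are pale for most genes, and the 16w3 and 16w4 columns are red for most H2A, H2B and H3 genes.

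Between the 2 libraries of a code the genes differed by a median absolute log2 value of 0.21 (16w2), 0.26 (16w3) and 0.30 (16w4), computed on log2(CPM + 0.1). Between RED 2 and the other RED libraries it was 1.72 and 1.22, and between GREEN 1 and the other GREEN libraries 1.40 and 1.38. Between the codes 16w3 and 16w4 it was smaller, at 0.58 for RED 3 and GREEN 3, 0.47 for RED 3 and RED 4, 0.33 for GREEN 2 and GREEN 3 and 0.26 for RED 4 and GREEN 2. The CTL libraries differed from each other by 0.37 to 0.55. Over all genes, too, libraries of one code deviated together from their group means (r = 0.77, 0.66 and 0.71 across genes, which are not independent replicates). What a code stands for is not given in the labels, so animal, day and batch cannot be told apart.

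Hist1h3c, an H3 gene at bases 23744973 to 23745602 of chromosome 13, had the largest fitted difference of RED from CTL. It read 0.266, 0.347 and 0.486 CPM in CTL 1, CTL 2 and CTL 5, then 0.185, 6.38 and 4.47 in RED 2, RED 3 and RED 4, and 0.588, 4.79 and 2.71 in GREEN 1, GREEN 2 and GREEN 3. RED 2 lay below all CTL libraries and RED 3 and RED 4 far above them, and the difference did not pass the test (log2 3.32, SE 1.15, adjusted p = 0.13). The linker histone gene Hist1h1b, like Hist1h3c named after its values were seen, read 0.547 to 1.09 CPM in CTL, then 2.08, 11.4 and 3.39 in RED and 2.08, 6.42 and 2.39 in GREEN. All 6 libraries of injured liver lay above the CTL libraries (RED log2 2.85, SE 0.74, adjusted p = 0.054).

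Summed by class, H3 genes had the highest ratio of RED and of GREEN to CTL. Their sum was 32.3, 32.1 and 39.0 CPM in CTL 1, CTL 2 and CTL 5, 33.4, 103.4 and 68.9 in RED 2, RED 3 and RED 4, and 34.2, 85.02 and 72.7 in GREEN 1, GREEN 2 and GREEN 3. RED 2 and GREEN 1 lay inside the CTL range, and the other 4 libraries above it. The RED mean was 1.99 times and the GREEN mean 1.86 times the CTL mean. The H4 sum was 142.4 to 209.2 CPM in CTL, 111.5, 207.5 and 253.9 in RED 2, RED 4 and RED 3, and 101.3, 229.7 and 255.0 in GREEN 1, GREEN 2 and GREEN 3. For H4 the 16w2 libraries lay below every CTL library. Ratios of RED to CTL were 1.61 for H1, 1.11 for H2A, 1.15 for H2B and 1.15 for H4. Sums follow the most abundant genes, and by gene H3 did not stand apart from H2A and H2B. The median log2 difference of RED from CTL was 1.60 for H2B, 1.59 for H3, 1.44 for H2A, 0.95 for H1 and 0.30 for H4. For GREEN against CTL these medians were 1.61, 1.37, 1.28, 0.75 and 0.33.

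**Figure D3:**
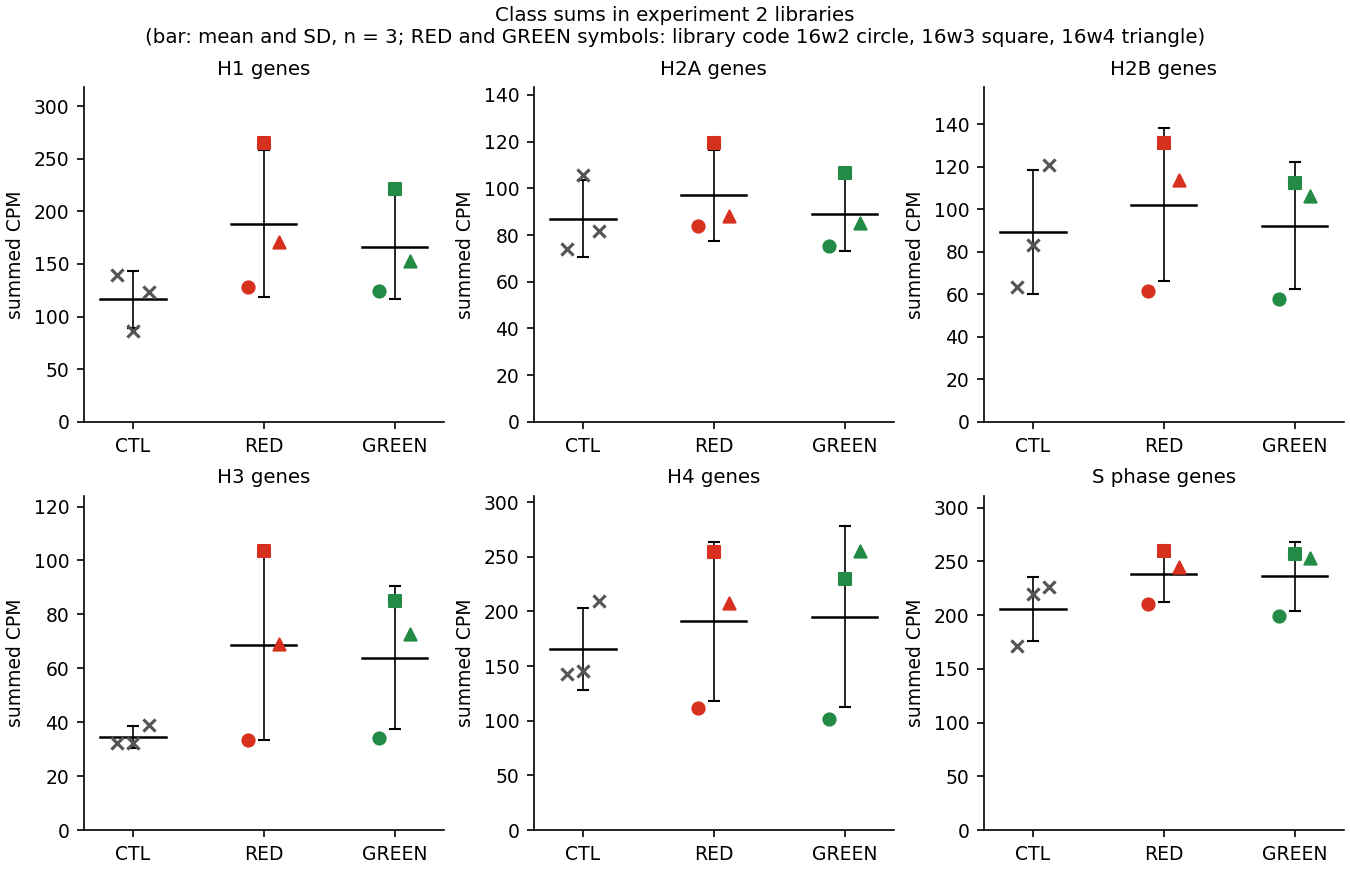
Summed CPM of the genes of each class, and of 30 S phase genes, in each experiment 2 library (vertical axis from 0), by group; bars give the mean and SD of 3 libraries and symbols the library code. In every histone panel the circles (16w2) are the lowest RED and GREEN libraries and the squares (16w3) the highest RED library; for H3 the circles sit at 33.4 and 34.2, inside the CTL values.

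RED against CTL asks how native hepatocytes of injured liver differ from those of healthy liver. In experiment 2, 0 of 62 histone genes passed the test (edgeR, adjusted p under 0.05), where 6.73% of all genes were higher and 0.446% lower. At an unadjusted p under 0.05 there were 21, DESeq2 called 16 and limma-voom 0. The fitted value was positive in 54 of 62 genes, with a median log2 of 1.29 against 0.09 over all genes. The standard errors had a median of 0.58. Without RED 2, the RED library nearest to CTL, 17 were called higher. The shares of all genes at an unadjusted p under 0.05, in that run and by DESeq2 are not given, so these counts have no background beside them. Every RED library lay above every CTL library for 13 of the 62, against 19% of all genes.

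GREEN against CTL compares DR-derived hepatocytes with native ones of healthy liver. Here 2 of 62 rose and 0 fell (edgeR, adjusted p under 0.05), against 15.8% and 4.85% of all genes. At an unadjusted p under 0.05 there were 22, DESeq2 called 18 and limma-voom 1. Every GREEN library lay above every CTL library for 20 of the 62, against 26.8% of all genes. The H2B gene Hist1h2bg read 3.67, 2.56 and 4.13 CPM in CTL 1, CTL 2 and CTL 5, 5.28, 14.6 and 12.5 in RED 2, RED 3 and RED 4, and 5.99, 13.9 and 18.4 in GREEN 1, GREEN 2 and GREEN 3. All injured libraries lay above the CTL libraries, and GREEN was higher than CTL by a log2 of 1.89 (SE 0.49, adjusted p = 0.027). The H4 gene Hist1h4k read 0.772, 0.960 and 2.25 CPM in CTL, 3.48, 8.32 and 3.54 in RED, and 3.32, 7.82 and 4.56 in GREEN (log2 1.98, SE 0.56, adjusted p = 0.037). Both calls were lost without CTL 1, CTL 2, GREEN 2 or GREEN 3, that of Hist1h2bg also without CTL 5 and that of Hist1h4k without RED 4 (adjusted p 0.0021 to 0.14 and 0.0043 to 0.13 over all alternatives). Without RED 2 or without GREEN 1 there were 12 calls, and on library totals 23 genes were called higher, where the median of all genes moved from 0.10 to 0.60. For these runs, DESeq2 and the unadjusted p the shares of all genes are not given.

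The stretches just upstream of 3 genes are shown because they belong to the 2 genes called in GREEN and to the gene with the largest RED value, a choice made after these values were seen. They come from RefSeq promoter windows on GRCm38.p6, 100 bases before the annotated start, 5′ to 3′ on the gene's strand, with capitals for the motifs ATTTGCAT (the octamer), CCAAT and TATAAA on either strand.
Hist1h2bg, chr13:23571300-23571399, plus strand: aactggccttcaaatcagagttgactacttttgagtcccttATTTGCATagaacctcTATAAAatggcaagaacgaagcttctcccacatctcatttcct
Hist1h4k, chr13:21750554-21750653, minus strand: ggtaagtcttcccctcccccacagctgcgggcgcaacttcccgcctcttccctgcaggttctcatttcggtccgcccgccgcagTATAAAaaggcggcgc
Hist1h3c, chr13:23745522-23745621, minus strand: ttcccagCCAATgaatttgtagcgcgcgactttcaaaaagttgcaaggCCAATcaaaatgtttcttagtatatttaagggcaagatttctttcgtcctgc
The RefSeq starts differ from the gene bounds given above: most of the Hist1h3c stretch lies inside the GENCODE gene, the Hist1h2bg stretch overlaps the first bases of its gene, and the Hist1h4k stretch lies outside. Hist1h2bg shares its upstream stretch with the H2A gene Hist1h2ae, which starts 176 bases away on the other strand. In windows of 250 bases before to 50 after the start, the octamer was present in 7 of 18 H2A and 6 of 16 H2B genes and in 0 of the other 28 matched histone genes, against 1.75% of 27025 RefSeq promoters. CCAAT was present in 85.48% of the 62 matched histone promoters (37.92% of all) but in 3 of 12 for H4, and TATAAA in 56.45% (14.16% of all).

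GREEN against RED asks whether the 2 hepatocyte populations of injured liver differ. None of the 62 histone genes passed the test in experiment 2, and 0 did so at an unadjusted p under 0.05 or by DESeq2 or limma-voom, while 0.452% of all genes were higher and 0.00595% lower. The median log2 was −0.15 and values ran from −0.72 to 0.51, with standard errors of 0.23 to 1.64. The median was 0.35 without RED 3 and 0.22 without GREEN 1. Every GREEN library lay above every RED library for 0 of the 62 (9.77% of all genes) and below for 1 (5.41%). With the library code as a replicate block and CTL left out, 893 genes of all were higher and 5 lower, and still 0 histone genes were called (3 at an unadjusted p under 0.05, median log2 −0.07). The share of all genes at that unadjusted p is not given. Within codes, GREEN 1 was above RED 2 in 36 of 61 genes. GREEN 2 was above RED 3 in 9 of 62, and GREEN 3 above RED 4 in 34 of 62.

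Genes with a high level in the poly(A) libraries had a smaller median difference from CTL. The 36 genes whose poly(A) level was under 5% of the depletion level had a median RED difference from CTL of 1.50 in experiment 2, and the 14 between 5% and 25% one of 1.65. The 12 over 25% had a median of 0.15, and for GREEN against CTL the 3 medians were 1.41, 1.63 and −0.09. Hist1h2bc (−0.30 in RED and −0.65 in GREEN), Hist2h2aa1 (−0.25 and −0.42) and Hist2h2be (−0.21 and −0.11) were among the 12, and none of these values passed the test. In RED 8 of the 12 were positive, the highest being Hist2h3c2 (1.55 in RED and 1.25 in GREEN), Hist1h2bp (1.39 and 1.59) and Hist1h1c (0.95 and 0.75). Of the 36 under 5%, 33 were positive in RED, but several abundant ones were near 0. Hist1h4h had −0.04 in RED and −0.03 in GREEN, Hist1h4d −0.01 and 0.21, Hist1h4c 0.07 and 0.06 and Hist1h1e 0.01 and −0.09. Hist1h4n, also abundant, had 0.75 and 0.56. The median CTL level was 4.09 CPM per kilobase over 25%, 1.21 between 5% and 25% and 2.92 under 5%. The part of abundance was not tested. The RED libraries and CTL 5 enter both axes of this description, so a high RED depletion level lowers the percent and raises the difference.

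**Figure D4:**
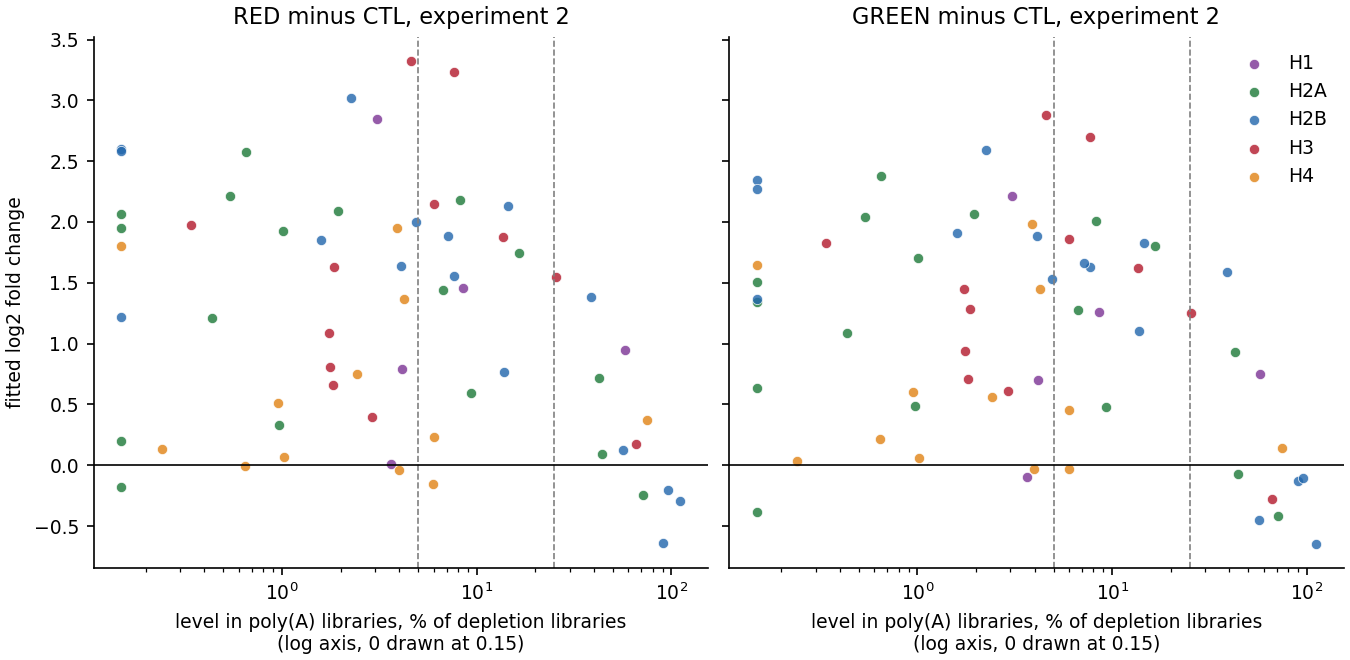
Fitted log2 difference of RED (left) and GREEN (right) from CTL in experiment 2 (vertical) against the poly(A) level in percent of the depletion level in the 4 samples with both libraries (horizontal, log axis, 0 drawn at 0.15), 1 point per tested histone gene. Dashed lines mark 5% and 25%; points right of 25% lie mostly near or below 0, with medians of 0.15 and −0.09.

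Lists of genes that work with histones also held few calls. Of the 30 S phase genes 0 passed in RED against CTL in experiment 2, where 6.73% of all genes were higher. In GREEN against CTL, where 15.8% of all genes were higher, 1 rose, the origin recognition gene Orc1 (log2 1.51, SE 0.37, adjusted p = 0.022). Their summed level was 171.5, 220.0 and 226.3 CPM in CTL 1, CTL 2 and CTL 5, 210.0, 259.4 and 244.8 in RED 2, RED 3 and RED 4, and 199.3, 256.9 and 252.8 in GREEN 1, GREEN 2 and GREEN 3. Here too RED 2 and GREEN 1 lay within the CTL range and the other 4 above it. Above every CTL library were 23 of the 30 in RED 3 (37.6% of all genes), 18 in RED 4 (36.8%), 22 in GREEN 2 (38.6%) and 19 in GREEN 3 (44.4%). In RED 2 there were 6 (41.8%) and in GREEN 1 there were 5 (42%). A CTL library set against the remaining CTL libraries could reach similar numbers. CTL 5 was above them in 19 of the 30 (30.9%), CTL 2 in 10 (44.1%) and CTL 1 in 1 (24.3%). Rrm2, a subunit of the enzyme that makes DNA precursors, named here after its values were seen, read 2.85 to 3.95 CPM in CTL, 1.98, 8.91 and 18.6 in RED and 2.33, 7.91 and 9.97 in GREEN. The thymidine kinase gene Tk1 had the opposite order, at 27.1 CPM in RED 2 and 10.5 in GREEN 3.

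Of 21 genes of histone mRNA processing and control 0 passed in either comparison with CTL, where 6.73% (RED) and 15.8% (GREEN) of all genes were higher. Slbp, which binds the stem-loop, read 10.2 to 12.2 CPM in CTL and 13.2, 16.8 and 19.2 in GREEN 1, GREEN 2 and GREEN 3 (log2 0.52, SE 0.17, adjusted p = 0.066). Among 11 variants H2afy2, a macroH2A gene, rose in GREEN against CTL (log2 2.44, SE 0.53, adjusted p = 0.014), and of 20 chaperones Hira rose in GREEN (0.54, SE 0.16, adjusted p = 0.047) and Mms22l in RED (0.99, SE 0.24, adjusted p = 0.040). No gene of these 3 lists fell, against 0.446% of all genes in RED and 4.85% in GREEN.

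Markers of other cells also differed between the groups, and fewer cells of a type and less RNA per cell cannot be told apart in bulk samples. All 12 endothelial markers were higher in RED than in CTL in experiment 2, with summed levels of 86.3 to 133.5 CPM in CTL, 368.3 to 1256 in RED and 439.4 to 696.6 in GREEN. Macrophage markers summed to 43.5 to 113.0 in CTL, 131.3 to 940.9 in RED and 161.7 to 477.8 in GREEN, with 3 of 12 higher in RED. Matrix and stellate cell markers (11 of 12 higher in RED, 12 in GREEN) summed to 26.3 to 60.2, 255.9 to 967.5 and 955.4 to 1715, and biliary markers (0 and 10 of 12) to 51.1 to 324.1, 109.0 to 276.2 and 579.4 to 3371. Lymphocyte markers summed to at most 28.9 in any library. Over all genes, 6.73% were called higher in RED and 15.8% in GREEN against CTL. Krt19, Cldn4 and Cftr were at 0 in all CTL libraries. RED 2 had the lowest sums of the RED libraries for endothelial, macrophage and matrix markers, as it had for histones, and their part in the histone levels was not tested. GREEN 1, whose histone levels were the lowest of GREEN, also had the lowest median ratio to CTL of the GREEN libraries for endothelial (4.62), macrophage (2.44), biliary (8.95) and matrix markers (17.2). For lymphocyte markers GREEN 1 had the highest (3.08, against 2.59 in GREEN 2 and 2.78 in GREEN 3). Between the other codes the order was not that of the histones, whose ratios were higher in RED 3 and GREEN 2. Endothelial ratios were 8.6 in RED 3 and 14.8 in RED 4, and 5.21 in GREEN 2 and 8.47 in GREEN 3. Macrophage, matrix and biliary ratios were also higher in RED 4 and GREEN 3.

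With poly(A) selection, 19 histone genes had enough counts to test in experiment 1. There 1 of 19 rose in RED against CTL and 0 fell (11.8% and 1.48% of all 15778 genes). It was Hist1h4i, the H4 gene at bases 22040636 to 22041362 of chromosome 13, with 1.22, 1.51 and 1.64 CPM in CTL 3, CTL 4 and CTL 5, 4.71, 8.37, 2.96, 2.27 and 3.19 in RED 1 to RED 5, and 1.61 and 1.50 in GREEN 4 and GREEN 5. All RED libraries lay above the CTL and GREEN libraries (log2 1.56, SE 0.45, adjusted p = 0.046). Every RED library lay above every CTL library for 2 of the 19 genes, against 16% of all genes. The call was lost in 11 of 15 alternatives, with adjusted p up to 0.13.

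GREEN against RED in experiment 1 gave 5 of 19 lower and 0 higher, against 14.5% and 19.4% of all genes, with a median log2 of −1.08 against 0.04 over all genes. Hist1h1c read 30.1, 43.9, 65.8, 33.9 and 21.9 CPM in RED 1 to RED 5 and 9.75 and 12.6 in GREEN 4 and GREEN 5 (log2 −1.81, SE 0.44, adjusted p = 0.011). Hist2h2aa1 read 16.1 to 54.4 CPM in RED, with a median of 28.8, and 6.89 and 13.8 in GREEN (log2 −1.57, SE 0.48, adjusted p = 0.031). Hist1h2bc, at 21.9 to 63.0 CPM in RED and 10.3 and 14.9 in GREEN, was lower by a log2 of −1.70 (SE 0.54, adjusted p = 0.036). Hist1h1e (log2 −1.90, adjusted p = 0.017) and the H3 gene Hist2h3c1 (−1.78, adjusted p = 0.028) were the other two. For each of the 5, both GREEN libraries lay below all 5 RED libraries, as did 9 of the 19 tested (21.4% of all genes), while 2 of the 19 lay above (28.4%).

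**Figure D5:**
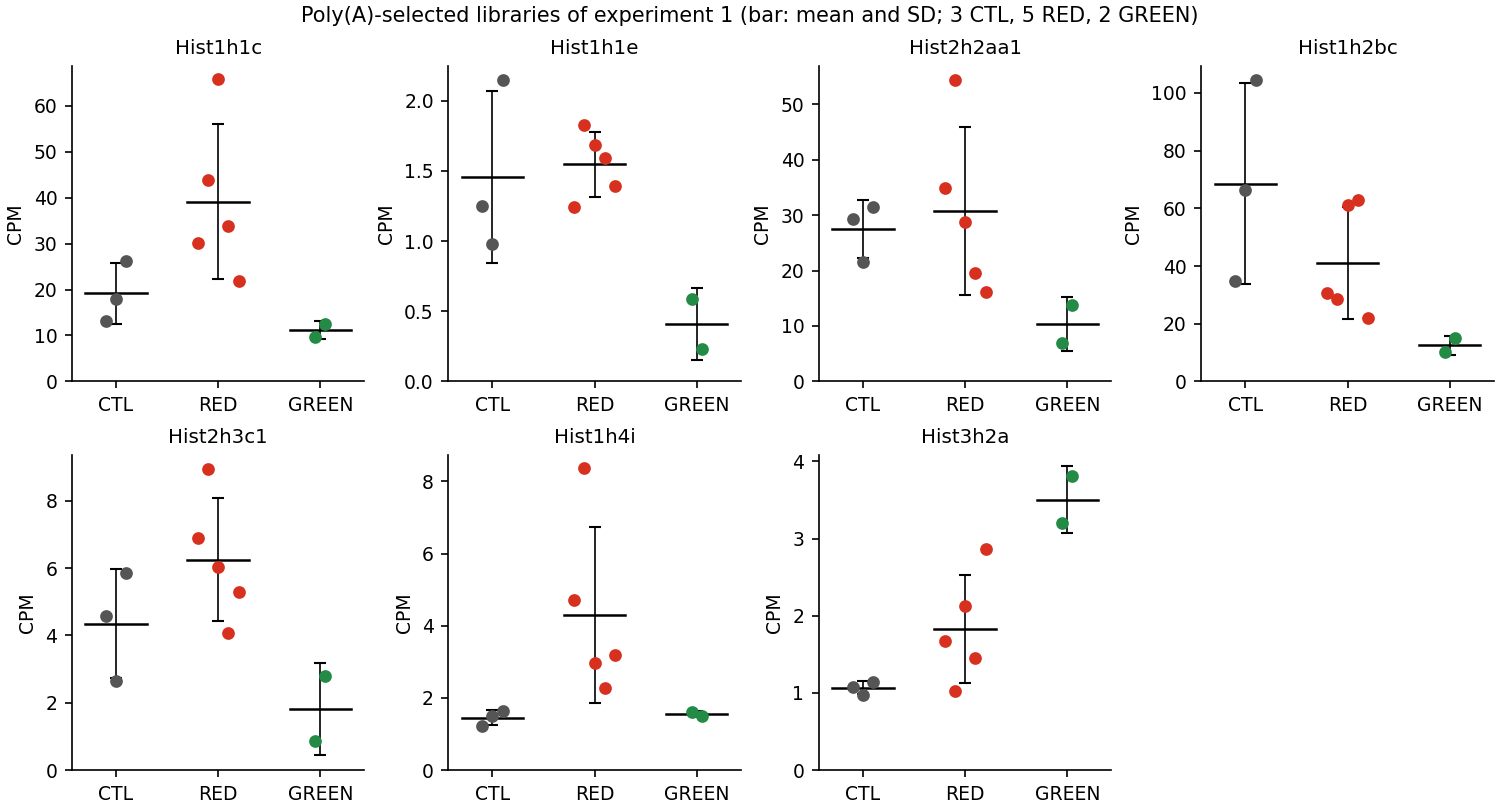
CPM in the poly(A)-selected libraries of experiment 1 (vertical axes from 0) for the 7 histone genes called in any comparison there, 1 point per library, with the mean and SD of 3 CTL, 5 RED and 2 GREEN libraries. GREEN lies below all RED libraries for Hist1h1c, Hist1h1e, Hist2h2aa1, Hist1h2bc and Hist2h3c1, RED above the rest for Hist1h4i, and GREEN highest for Hist3h2a.

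These 5 calls depended on the scaling, on single GREEN libraries and on the replicate block. On library totals, where the median of all genes was 0.78 in place of 0.04, 2 were higher (Hist2h2be and Hist3h2a) and 1 lower (Hist1h1c). Without GREEN 4, 1 was lower, and without GREEN 5, 3. With the replicate number as a block, which here coincides with the library code for RED 4 with GREEN 4 and RED 5 with GREEN 5, 1 was lower (Hist2h3c1). In GREEN, biliary markers summed to 4023 and 7871 CPM and hepatocyte markers to 31970 and 34970, against 87.3 to 413.1 and 89630 to 130400 in RED. The part of this in the histone levels was not tested. Slbp was higher in the same GREEN libraries (log2 0.54, SE 0.14, adjusted p = 0.018). Of the 21 processing genes 4 rose, against 19.4% of all genes, and 1, Lsm1, fell, against 14.5%.

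GREEN against CTL in experiment 1 gave 3 of 19 lower and 1 higher, against 18.3% and 32% of all genes. Hist1h2bc read 34.8, 66.4 and 104.5 CPM in CTL 3, CTL 4 and CTL 5, all above the GREEN libraries (log2 −2.44, SE 0.59, adjusted p = 0.0075). Hist1h1e was lower by −1.82 (SE 0.53, adjusted p = 0.018) and Hist2h2aa1 by −1.41 (SE 0.51, adjusted p = 0.041). The H2A gene Hist3h2a, at bases 58954685 to 58956830 of chromosome 11, read 1.08, 0.975 and 1.14 CPM in CTL, 1.03 to 2.86 in RED and 3.20 and 3.81 in GREEN, higher than CTL by a log2 of 1.71 (SE 0.43, adjusted p = 0.0088). On library totals the median of all genes moved from 0.24 to 1.27, and 5 were higher and 1 lower. The call of Hist1h2bc was lost without GREEN 4, that of Hist3h2a without GREEN 5, that of Hist1h1e without CTL 5 or GREEN 5, and that of Hist2h2aa1 without CTL 3, CTL 5, RED 1, RED 3 or GREEN 4. RED and CTL libraries are shared by these comparisons.

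Whether the group differences themselves differed between the experiments was tested as an interaction over 15 libraries. None of 63 tested histone genes was called by edgeR for RED against CTL, GREEN against RED or GREEN against CTL. Over all genes, 0.00558% were lower and 0% higher for the first, and 0% in each direction for the others. At an unadjusted p under 0.05 there were 2, 2 and 7 histone genes, and the shares of all genes at that threshold are not given. Over the 63 tested histone genes the standard errors had medians of 1.78, 1.46 and 1.62 and ran up to 11992, 2696.7 and 6861.1. Genes with so large a standard error could not be called, so the lack of calls does not show that the experiments agree. In experiment 2, Hist1h1c read 62.2, 111.8 and 67.7 CPM in GREEN and 69.0, 123.2 and 85.6 in RED (log2 −0.20), where experiment 1 gave −1.81. The difference between these values did not pass the test (interaction 1.04, adjusted p = 0.61), and the experiments held different GREEN samples apart from 2 libraries of the code 16w4.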

How the data were processed

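Total RNA (150 ng) of CTL, RED and GREEN hepatocytes, 5 biological samples of each, gave 19 libraries. Experiment 1 used a poly(A)-selecting stranded mRNA kit and experiment 2 ribosomal depletion, per the labels' protocols. The authors deposited estimated counts per Ensembl gene made with kallisto 0.43.1 on GRCm38, per the submitters' processing notes; the sources used here do not name the annotation release of their index. GREEN 3 of experiment 2 and GREEN 4 of experiment 1 carry the same library code, 16w4Green, under different titles.

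The estimated counts were rounded. Symbols, transcript lengths and stem-loops came from GENCODE M21, which matched 34845 of 35274 IDs (98.8%). The histone genes and all lists were chosen with earlier results of these data known. Genes were filtered with filterByExpr, scaled by TMM and tested with edgeR 4.0.16 (quasi-likelihood, R 4.3.3), with p adjusted by Benjamini-Hochberg over all genes at 0.05. The SE is the log2 difference over the root of F. The library method fit had the sample as a term and its own TMM factors, so its CPM differ slightly from those of the experiment 2 fit. The fits were tested on simulated data. Alternatives were library totals, DESeq2 1.42.0, limma-voom 3.58.1, no filter, each library left out, replicate blocks, the 15 libraries together and 2 groups only. Libraries of one code deviated together in experiment 2 (r = 0.77, 0.66 and 0.71), and the code was used as a block for GREEN against RED.

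Named with values were the 25 highest genes per kilobase in experiment 2, all genes called between groups, the 5 largest and 5 smallest library method differences, and, from each list, genes of highest level or past the threshold. Counting intervals are 95% and cover counting error only, and 0 counts were set against a floor of 3 over the group. Figures were drawn with matplotlib 3.10.9.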

Additional observations from a re-analysis of the deposited data

How the results depend on the processing

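No value of a named single gene that was called turned its direction under an alternative run; 57 lost their call and 27 gained one. Histone genes higher by library method numbered 56, with 35 under no replicate block and 49 to 57 with 1 sample left out (0 to 1 lower). In experiment 2, RED against CTL gave 0, but 9 on library totals, 16 with DESeq2, 1 with no filter, 7 over 15 libraries and 0 to 17 with 1 library left out. GREEN against CTL gave 2, but 23 on library totals, 18 with DESeq2, 1 with limma-voom, 5 with 2 groups only, 11 (and 3 lower) over 15 libraries, 0 with the replicate block by title number and 0 to 12 with 1 library left out. GREEN against RED gave 0 under every alternative run. In experiment 1, RED against CTL gave 1, but 4 on library totals and with DESeq2, 0 with limma-voom, no filter or the replicate block, and 0 to 1 with 1 library left out. GREEN against RED gave 0 higher and 5 lower, but 2 and 1 on library totals, 1 higher with limma-voom, 1 lower with the replicate block, and 0 to 1 higher and 1 to 6 lower with 1 library left out. GREEN against CTL gave 1 higher and 3 lower, but 5 and 1 on library totals, 6 lower with DESeq2, and 0 to 2 higher and 1 to 3 lower with 1 library left out. The tests between experiments gave 0 on library totals and with no filter. Title numbers are not known to pair samples, but in experiment 1 they coincide with the library codes of RED 4 with GREEN 4 (r = 0.27) and RED 5 with GREEN 5 (r = −0.53). The shares of all genes called under each alternative are not given here, and the cause of these changes was not tested.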
